A study of Mus musculus with 4 samples.

Results

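Fabp6, Slc10a2, Slc51a, Slc51b, Fgf15, Nr1h4 and Nr0b2 are the bile acid uptake and FXR genes described here, 7 of the 32286 features counted in each library. They were taken by gene symbol, each symbol matched 1 feature, and all 7 were counted in all 4 libraries. The genes were chosen by their measured UMI levels over enterocyte zones and mice, so these levels are a description with no test. The cells came from the distal jejunum of adult male mice 18.5 h after small intestinal ischemia and reperfusion (I/R), in which the blood supply is clamped and then restored. Control mice carried Foxc1fl/fl;Foxc2fl/fl, and EC-Foxc-DKO mice carried the same floxed alleles with Cdh5-CreERT2, with 2 mice in each group. The Cdh5 promoter drives the tamoxifen-inducible Cre in endothelial cells, so the epithelial cells that express the bile acid genes were not its target. All 4 mice had the surgery, and the samples used here hold no mouse without it.

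Bile acids made in the liver are reclaimed in the small intestine, mostly in its last part, the ileum. ASBT, encoded by Slc10a2, takes them up from the lumen, the cytosolic binding protein encoded by Fabp6 carries them through the enterocyte, and the paired subunits encoded by Slc51a and Slc51b release them toward the blood. Inside the cell they activate FXR, the nuclear receptor encoded by Nr1h4, whose target genes include Fabp6, Slc51a, Slc51b, Nr0b2 and Fgf15, the last a hormone that lowers bile acid synthesis in the liver. Fabp6 and Slc10a2 are known as ileal genes, which makes them a measure of position along the gut.

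Unique molecular identifiers (UMIs), 1 for each captured transcript, totalled between 15557181 and 72046346 a library, over 3623 to 7347 barcodes. Barcodes with at most 10% mitochondrial UMIs were kept, which left 5615 of 22679 barcodes (24.8%), between 348 in Control replicate 2 and 2742 in EC-Foxc-DKO replicate 1. The median mitochondrial share over all barcodes was 24.9% in Control replicate 1 and 54.0% in the second Control mouse, with 14.98% and 25.8% for EC-Foxc-DKO mice. Of the kept barcode sequences, 24 occurred in 2 libraries. Foxc1 in blood and lymphatic endothelial cells had 2 and 9 UMIs in 36 and 39 Control cells, and 1 and 0 UMIs in 90 and 24 EC-Foxc-DKO cells. Foxc2 had 0 UMIs in these cells in all 4 libraries, so it checks nothing. The clusters called Bottom, Middle and Top enterocytes and Crypt cells each carried at least 9 of their 10 listed markers, with Reg3b and Reg3g among the leading genes of Bottom enterocytes, Ada and Nt5e among those of Top enterocytes and Olfm4 leading Crypt cells. Control replicate 1, Control replicate 2, EC-Foxc-DKO replicate 1 and EC-Foxc-DKO replicate 2 contributed 189, 27, 121 and 346 Bottom enterocytes, and values for the 4 mice follow this order below. Middle enterocytes are described in the first 3 mice (343, 21 and 230 cells) and Top enterocytes in the first replicate of each group (221 and 96 cells), since the other libraries held under 10 such cells.

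The genes lie on 7 chromosomes, and sequence near their starts is shown because Fabp6, the gene that varied most between mice, has 2 close matches to the inverted repeat that FXR is known to bind. On GRCm38, Fabp6 is annotated at chr11:43596049-43601540 on the minus strand and Slc10a2 at chr8:5083219-5105351 on the minus strand. Slc51a lies at chr16:32474504-32487879 and Slc51b at chr9:65412714-65422955, both on the minus strand. Nr1h4 lies at chr10:89454234-89533585 on the minus strand, Nr0b2 at chr4:133553376-133556536 on the plus strand and Fgf15 at chr7:144896531-144900953 on the plus strand. RefSeq windows of 300 bases around the start site (GRCm38.p6) were matched for 6 of the 7 genes and searched on both strands for AGGTCANTGACCT, that is AGGTCA and its reverse complement 1 base apart. Capitals below mark the closest matches, and each line reads 5′ to 3′ on the strand of the gene. The Fabp6 line is the 250 bases before the start site, chr11:43601563-43601812 on the minus strand, outside annotated exons. The Slc51a line is chr16:32487938-32487966, also outside annotated exons. The Slc51b line is chr9:65422940-65422968. Its match, at chr9:65422948-65422960, overlaps an annotated exon, and both run past the annotated end of the gene at 65422955.
Fabp6: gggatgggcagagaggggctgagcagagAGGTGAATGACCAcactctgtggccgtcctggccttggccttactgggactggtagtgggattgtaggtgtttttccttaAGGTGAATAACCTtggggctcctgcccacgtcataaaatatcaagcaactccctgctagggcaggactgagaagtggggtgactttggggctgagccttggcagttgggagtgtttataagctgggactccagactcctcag
Slc51a: accacgtgAGGACTTTGTCCTtctcttct
Slc51b: cattcgtgGGGTCATTCACCCtggactgg

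Counted from 1 at the first base of the motif, with the motif base first, the upstream Fabp6 match at -222 to -210 from the start site differed by C5G and T13A. The downstream Fabp6 match at -142 to -130 differed by C5G and G9A. A match with at most 2 mismatches was found in 1.14% of all 32851 RefSeq windows of this length. The closest matches of Slc51a and Slc51b had 3 mismatches, which 11.4% of all windows reach, and those of Slc10a2, Nr1h4 and Nr0b2 had 4, which 56.4% reach. A match is a description of the letters and not a binding site.

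Levels are given as UMIs per 1000000 UMIs of the cells summed (CPM). Each captured molecule is counted once at its 3′ end, so CPM was not divided by gene length. In Bottom enterocytes the genes differed in level by a wide margin, with Slc51a at 413 ± 60.3 CPM (SD, n = 4 mice), Slc51b at 309 ± 77.2 CPM and Nr1h4 at 36.8 ± 2.70 CPM. Fgf15, Nr0b2 and Slc10a2 were low, at 5.38 ± 2.88, 4.26 ± 2.23 and 4.08 ± 4.07 CPM, and their spreads overlapped. Fabp6 averaged 79.9 ± 137 CPM, a spread larger than its mean. Per mouse, Slc51a was the highest of the 7 genes and Slc51b the second in all 4 mice, while the place of Fabp6 moved from the sixth to the third.

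**Figure D1:**
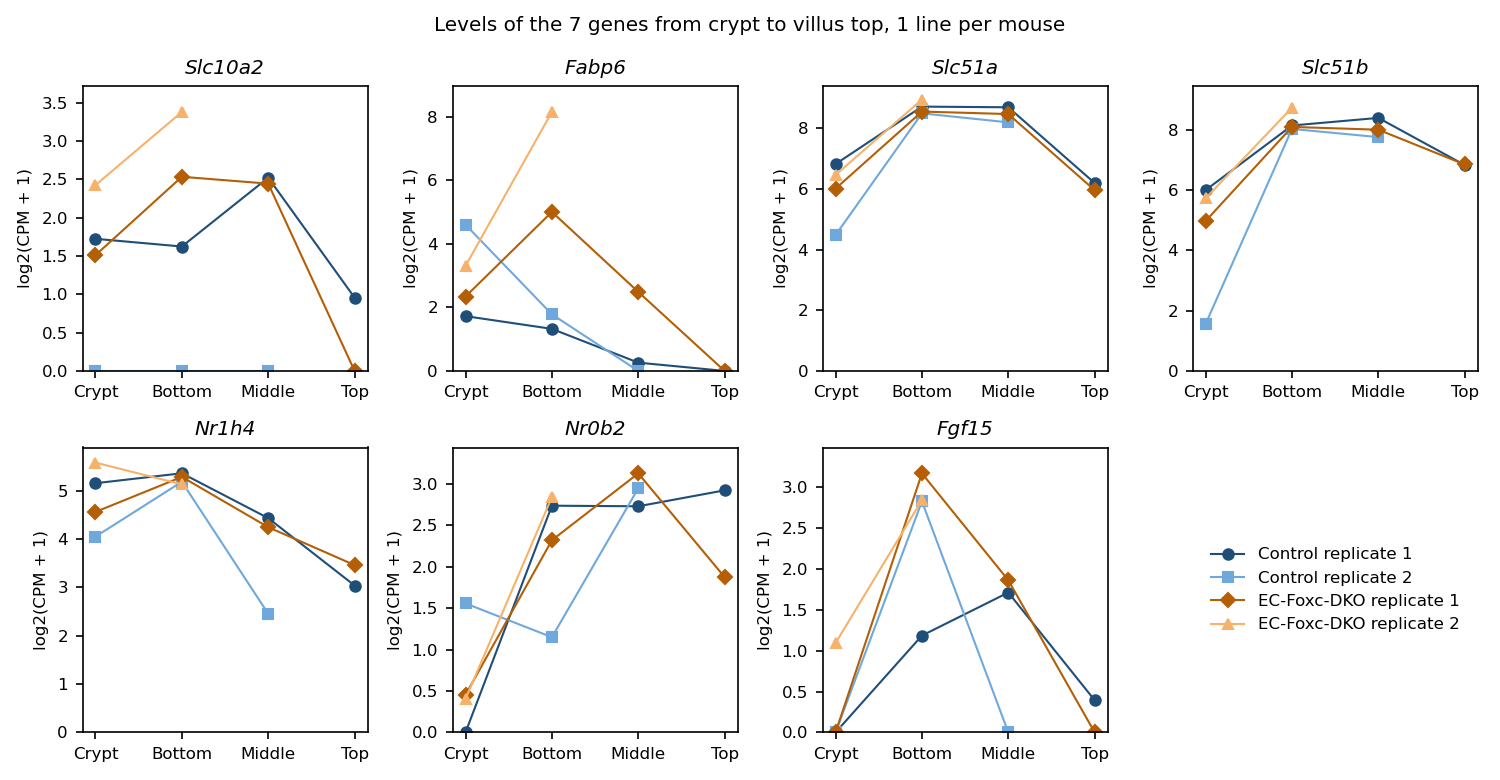
Level of each of the 7 genes as log2(CPM + 1) (y axis) in Crypt cells and in Bottom, Middle and Top enterocytes (x axis), with 1 line per mouse and a point only where a mouse had at least 10 cells. Slc51a, Slc51b and Nr1h4 ran close together in Bottom enterocytes of the 4 mice, whereas Fabp6 spread from 1.50 to 285 CPM.

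Slc10a2, the gene of the apical uptake transporter ASBT, was scarce in every mouse. In Bottom enterocytes it had 18, 0, 24 and 84 UMIs, or 2.08, 0, 4.80 and 9.43 CPM. The 0 in the 27 cells of Control replicate 2 allows a level of up to 3.66 CPM by counting error alone, which overlaps the other Control mouse. The highest level was in EC-Foxc-DKO replicate 2, where 63 of 346 cells (18.2%) had a UMI against 12 of 189 and 8 of 121 cells in Control replicate 1 and EC-Foxc-DKO replicate 1. After each cell was thinned to 2000 UMIs the shares were 0.40%, 0%, 0.63% and 1.90%, in the same order. In EC-Foxc-DKO replicate 2 the UMIs were spread over many cells, with at most 5 in 1 cell. In EC-Foxc-DKO replicate 1 the 24 UMIs lay in 8 cells, and the highest cells held 8 and 7. Middle enterocytes held 4.75, 0 and 4.45 CPM and Top enterocytes 0.94 and 0 CPM. Crypt cells held 2.31, 0, 1.85 and 4.37 CPM. Thus Slc10a2 was detected from the crypt to the middle zone and hardly at the top in the first mouse of each group, the mice measured in all zones.

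Fabp6, the cytosolic bile acid binding protein, set 1 mouse apart. Bottom enterocytes held 13, 2, 156 and 2536 Fabp6 UMIs, which gave 1.50, 2.44, 31.2 and 285 CPM. The 2 Control mice were both below the 2 EC-Foxc-DKO mice, and the EC-Foxc-DKO mice differed from each other far more than the Control mice did. Middle enterocytes had 0.20, 0 and 4.61 CPM, and Top enterocytes had 0 UMIs in 221 and 96 cells, which allows up to 0.94 and 2.00 CPM. In Crypt cells the levels were 2.31, 23.3, 4.07 and 8.91 CPM, and the highest of these, in Control replicate 2, came from 12 UMIs in 1 of 15 cells. In EC-Foxc-DKO replicate 2, by contrast, 30 of 144 Crypt cells shared 55 UMIs.

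The Fabp6 signal was carried by few cells. In EC-Foxc-DKO replicate 2 only 41 of 346 Bottom enterocytes (11.8%) had a Fabp6 UMI, and 18 cells with 10 or more held 2457 of the 2536 UMIs (96.9%). The highest cells held 600 and 446 UMIs. After thinning to 2000 UMIs a cell, 0.20%, 0.34%, 2.05% and 6.55% of Bottom enterocytes of the 4 mice had a Fabp6 UMI. In EC-Foxc-DKO replicate 1, 3 of 121 cells held 153 of 156 UMIs (98.1%). The Control mice had no Bottom enterocyte with 10 or more, and their highest cells held 9 and 1 UMIs. Around that boundary, EC-Foxc-DKO replicate 2 had 6 cells with 5 to 9 UMIs and 3 cells with 10 to 20. Slc51a was distributed otherwise, with a UMI in 186 of 189, 23 of 27, 119 of 121 and 342 of 346 Bottom enterocytes.

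**Figure D2:**
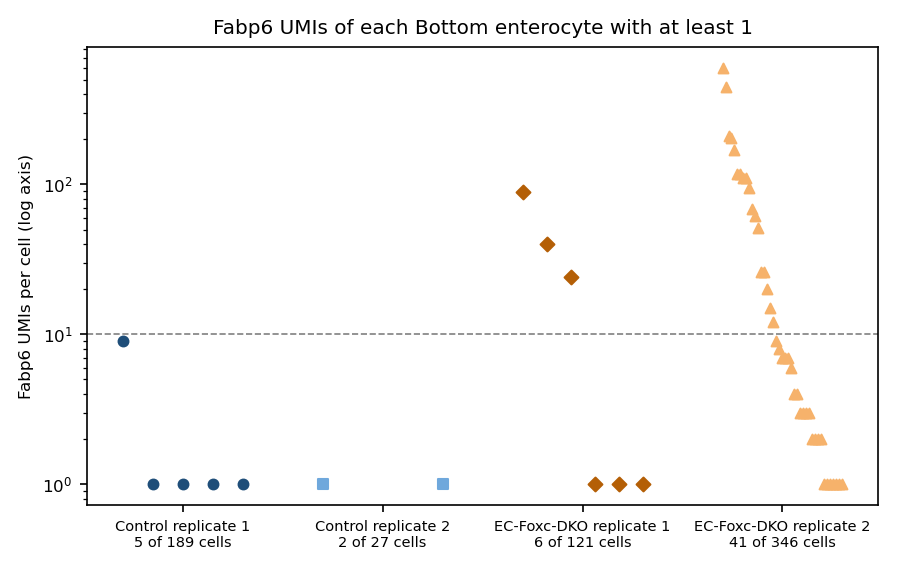
Fabp6 UMIs of each Bottom enterocyte that had at least 1 (y axis, log scale) in the 4 libraries (x axis), 1 point per cell, with a dashed line at 10 UMIs. All cells above the line belong to the 2 EC-Foxc-DKO mice, 3 in replicate 1 and 18 in replicate 2, where the highest reached 600 UMIs.

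The order of the mice was not the same over all epithelial barcodes, taken without the mitochondrial limit as those with UMIs of at least 2 of the 5 genes Epcam, Krt8, Krt18, Cdh1 and Vil1. Barcodes with 10 or more Fabp6 UMIs numbered 0 of 4788 in Control replicate 1, 3 of 1180 in Control replicate 2, 6 of 4040 in EC-Foxc-DKO replicate 1 and 35 in EC-Foxc-DKO replicate 2. Per 1000 epithelial barcodes this was 0, 2.54, 1.49 and 12.6. Control replicate 2 was therefore above EC-Foxc-DKO replicate 1 on this measure, and of its 3 barcodes 2 lay above the mitochondrial limit, with up to 48 UMIs. Barcodes with 10 or more UMIs held 92.2%, 91.5% and 95.1% of all Fabp6 UMIs in the 3 libraries that had any. One kept barcode of EC-Foxc-DKO replicate 2 in a cluster led by hemoglobin genes had 299 Fabp6 UMIs.

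Bottom enterocytes with a Fabp6 UMI were lower in most genes of the proximal gut than the other Bottom enterocytes of the same mouse. For a list of 36 genes known to be higher in the proximal small intestine, counted where a gene had at least 50 UMIs in that mouse, the Fabp6-positive cells were lower in 33 of 34, 29 of 31, 32 of 34 and 31 of 34 genes. The median differences were -0.55, -0.80, -0.48 and -0.65 on the log2 scale, while all genes counted the same way had medians of 0.05, -0.07, 0.08 and 0.17 and were lower in 46.0%, 54.8%, 42.9% and 33.0% of cases. The list of 30 distal genes did not mirror this, being lower in 20 of 29, 13 of 18, 9 of 30 and 17 of 30 genes, with medians of -0.18, -0.31, 0.07 and -0.10. A list of mid-villus nutrient genes such as Sis and Slc5a1 was lower too, in 7 of 7, 7 of 7, 6 of 7 and 6 of 7 genes. Slc5a1 and Slc2a2 are in the proximal list as well, so gut position and villus position cannot be told apart here. These comparisons rest on 5, 2, 6 and 41 Fabp6-positive cells, and cells of 1 mouse are not replicates.

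Summed over the proximal list, Fabp6-positive cells held 34736, 29381, 36870 and 34924 CPM, and cells without Fabp6 held 58146, 45856, 50220 and 63567 CPM. Rbp2 and Fabp1 made up most of each sum. In Control replicate 1 they were at 8683 and 14727 CPM with Fabp6 and at 18693 and 22373 CPM without it. The Fabp6-positive cells were lower in all 4 mice, and their sums lay close together even though the number of such cells did not. Of these cells, 4 of 5, 2 of 2, 3 of 6 and 7 of 41 had a single Fabp6 UMI. In EC-Foxc-DKO replicate 1 the proximal sum was 42661 CPM in cells with 10 or more Fabp6 UMIs and 26563.5 CPM in those with 1 to 9. In EC-Foxc-DKO replicate 2 the order was the other way, at 30599 and 37330 CPM. The ratio of the distal to the proximal sum was 0.203, 0.238, 0.214 and 0.268 in Fabp6-positive cells and 0.140, 0.180, 0.157 and 0.152 in the others. Apoc3, a lipoprotein component, differed by -1.51, -1.61, -0.70 and -1.54 on the log2 scale. Fabp1, the liver-type fatty acid binding protein of the proximal gut, differed by -0.60, -0.81, -0.46 and -1.16. The 6 relatives of Fabp6, which include Fabp1, summed to 23426, 23663, 31909 and 33280 CPM with Fabp6 and 46182, 34554, 40864 and 64922 CPM without it. Nearly all of these sums came from Fabp1 and Fabp2. Nr1h4, in contrast, was higher in Fabp6-positive cells of all 4 mice, by 0.59, 0.42, 0.43 and 0.94. These differences rest on 19, 4, 14 and 67 Nr1h4 UMIs in the Fabp6-positive cells. The summed landmarks of the villus top were also lower, at 3430, 3203, 5008 and 4018 CPM in Fabp6-positive cells. The other Bottom enterocytes held 7078, 3419, 5949 and 10521 CPM. Bottom landmarks did not rise throughout, and their sums differed by -0.23, 0.75, -0.50 and -0.01 on the log2 scale. The part of villus position in the difference was not tested.

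**Figure D3:**
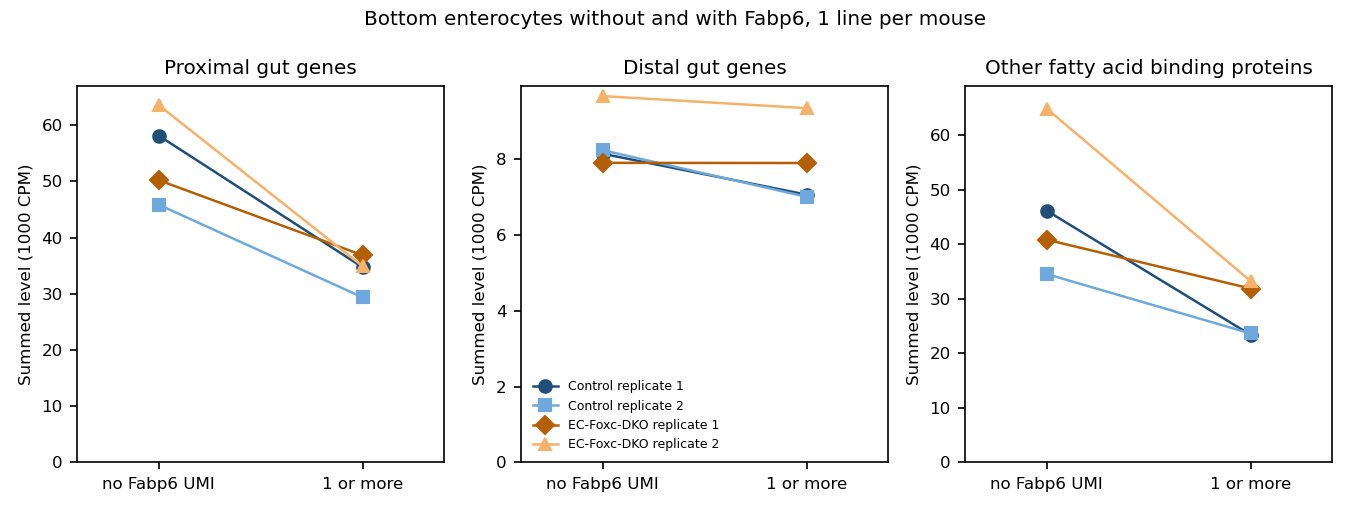
Summed level of the proximal gut genes, the distal gut genes and the relatives of Fabp6 (3 panels, y axes in 1000 CPM) in Bottom enterocytes without and with a Fabp6 UMI (x axis), 1 line per mouse. The proximal sum was lower in the Fabp6-positive cells of all 4 mice, from 45856 to 63567 CPM down to 29381 to 36870 CPM, while the distal sum lay between 7900 and 9661 CPM without Fabp6 and between 7004 and 9342 CPM with it.

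Within EC-Foxc-DKO replicate 2, 5 of the other 6 genes were higher in the 18 cells with 10 or more Fabp6 UMIs than in the 305 cells with none. Nr0b2 was lower, at 2.47 against 6.17 CPM. Of all 7158 genes with at least 50 UMIs in these cells 60.6% were higher, with a median of 0.13 on the log2 scale. Slc10a2 was at 27.2 against 8.36 CPM, Slc51a at 877 against 462 CPM, Slc51b at 544 against 419 CPM, Fgf15 at 24.7 against 4.76 CPM and Nr1h4 at 54.4 against 30.3 CPM. The low genes rest on few molecules there, 11 UMIs for Slc10a2, 10 for Fgf15 and 1 for Nr0b2. The share of cells with a Nr1h4 UMI was 44.4% and 44.6%, and of 5 other genes linked to FXR 2 were higher. Depth was alike, with medians of 21470 and 23045 UMIs a cell. Gata4, a transcription factor of the proximal gut, was at 46.9 and 45.9 CPM. The other mice did not all share this rise. Between cells with any Fabp6 UMI and cells with none, Slc51a differed by -0.16, -0.30, 0.48 and 0.65 on the log2 scale. Slc51b differed by -0.54, 0.91, -0.09 and 0.15, and Fgf15 by 2.41, -2.97, -3.24 and 1.55. Slc10a2 differed by -1.66, 0, 0.54 and 0.93, and Nr0b2 by -2.78, -1.24, 0.77 and 0.002, in the same order of mice.

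T cell transcripts were found in Bottom enterocytes of all mice and were highest in this mouse. The 10 CD8+ T cell markers summed to 18.4, 18.3, 23.6 and 75.6 CPM in Bottom enterocytes, with 8, 3, 8 and 10 of them detected and Cd8a at 0 in both Control mice. In EC-Foxc-DKO replicate 2, 7 of the 18 cells with 10 or more Fabp6 UMIs (38.9%) had a marker UMI. The share was alike in cells without Fabp6, at 117 of 305 (38.4%). Of the 18 cells 3 had 10 or more marker UMIs, against 1 of the 305. The 18 cells held 149 UMIs of Ccl5 and 82 of Gzma, both named after their values were seen. Cells of the 18 without any marker held 1650 of the 2457 Fabp6 UMIs. Among cells with no marker UMI the proximal sum stayed lower with Fabp6 than without, at 26630 against 59211, 29381 against 41168, 32790 against 51962 and 36931 against 65761 CPM.
Follicular B cell markers summed to 494, 261, 296 and 933 CPM in Bottom enterocytes, with 6, 3, 10 and 9 of 10 detected and Bank1 at 0 in the Control mice. Blood endothelial (BEC) markers summed to 35.3, 25.6, 36.0 and 166 CPM, with 9, 7, 8 and 7 of 10 detected and Plvap at 0 in Control replicate 1 and EC-Foxc-DKO replicate 2. Fabp4 and Ptprb were also at 0 in EC-Foxc-DKO replicate 2. Both sums were highest in that mouse, which had the highest Fabp6, and so were those of Erythroid and Crypt cell markers. Macrophage 1 markers were lowest there, and those of Fibroblasts and of Goblet and Paneth cells were highest in EC-Foxc-DKO replicate 1. Over all enterocytes the Follicular B cell sum was instead highest in Control replicate 1, at 1151, 561, 657 and 952 CPM. The 3 of its markers detected in Bottom enterocytes of Control replicate 2 were Cd74, H2-Ab1 and Cd83. Whether these transcripts came from the enterocytes themselves was not tested. The part of transcripts of other cell types in the Fabp6 levels was not tested either.

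Summed over all Bottom enterocytes, the distal list was at 8101, 8104, 7900 and 9621 CPM and the proximal list at 57286, 44106, 49481 and 59927 CPM, so EC-Foxc-DKO replicate 2 was highest for both. The distal to proximal ratio was 0.141, 0.184, 0.160 and 0.161, and on this measure that mouse lay between the 2 Control mice. Over all enterocytes the ratio was 0.227, 0.186, 0.213 and 0.161, a measure that mixes zones in which the ratio itself differed, with 0.288, 0.182 and 0.236 in Middle and 0.315 and 0.307 in Top enterocytes.

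Slc51a and Slc51b, which encode the α and β subunits of the basolateral exporter OSTα-OSTβ, were the most abundant of the 7 genes in Bottom enterocytes of every mouse. Slc51a was at 421, 361, 376 and 495 CPM in Bottom enterocytes, and Slc51b at 281, 260, 272 and 424 CPM. EC-Foxc-DKO replicate 2 was highest for both, and EC-Foxc-DKO replicate 1 lay within the Control range, so the groups overlapped. Middle enterocytes held 415, 293 and 355 CPM of Slc51a and 335, 215 and 255 CPM of Slc51b. In Top enterocytes Slc51a was at 72.5 and 61.4 CPM and Slc51b at 113 and 114 CPM.

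The order of the 2 subunits differed along the villus. Slc51a exceeded Slc51b by ratios of 1.50, 1.39, 1.38 and 1.17 in Bottom enterocytes and 1.24, 1.36 and 1.39 in Middle enterocytes. In Top enterocytes the ratio was 0.643 and 0.538, so that Slc51b was the higher one in both mice with enough cells. Both genes were detected in 97.9%, 77.8%, 97.5% and 98.6% of Bottom enterocytes and in 34.8% and 32.3% of Top enterocytes, which were also shallower, with a median of 12610 UMIs a cell against 31057. Crypt cells had 112, 21.4, 63.7 and 87.5 CPM of Slc51a and 62.8, 1.94, 30.4 and 51.8 CPM of Slc51b, with Slc51a the higher one in all 4 mice.

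Nr1h4, the gene of the bile acid receptor FXR, was the most even of the 7 across mice in Bottom enterocytes. It was at 40.0, 35.3, 38.0 and 34.0 CPM in Bottom enterocytes, and the groups overlapped. The share of cells with a UMI was 70.4%, 51.9%, 64.5% and 46.2%, and after each cell was thinned to 2000 UMIs it was 7.41%, 4.91%, 7.06% and 6.06%. Middle enterocytes had 20.6, 4.48 and 17.9 CPM and Top enterocytes 7.21 and 10.0 CPM. Crypt cells held 34.6, 15.6, 22.6 and 46.8 CPM. The receptor was therefore highest at the base of the villus and in the crypt and lowest at the top, in the same order in both mice measured in all zones.

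Nr0b2, encoding SHP, the nuclear receptor partner that is induced by FXR, followed another course. It had 5.67, 1.22, 3.997 and 6.17 CPM in Bottom enterocytes, 5.64, 6.72 and 7.74 CPM in Middle and 6.59 and 2.67 CPM in Top enterocytes. The groups overlapped in Bottom enterocytes, while the other zones had 1 EC-Foxc-DKO mouse each with enough cells, above both Control mice in Middle and below the Control mouse in Top enterocytes. Crypt cells held 0, 1.94, 0.37 and 0.32 CPM. A cluster led by Sprr2a3, Gml2 and Krt7, which carried the markers listed for Enteroendocrine cell 2, held 14.3, 12.8 and 1.50 CPM in the 3 mice with enough cells. Nr0b2 was thus found on the villus and hardly in the crypt, unlike Nr1h4, in the mice other than Control replicate 2. In that mouse Crypt cells, at 1.94 CPM, stood above Bottom enterocytes, whose 1.22 CPM came from 1 UMI.

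Fgf15, the hormone that FXR induces in the ileum, was at low levels in all mice. Bottom enterocytes held 11, 5, 40 and 55 UMIs, or 1.27, 6.09, 7.99 and 6.17 CPM, so that both Control mice were below both EC-Foxc-DKO mice, Control replicate 2 by a margin under its counting error. Few cells accounted for these values, 6, 1, 3 and 16 of them, and the highest single Bottom enterocyte had 3, 5, 23 and 22 UMIs. Middle enterocytes had 2.28, 0 and 2.64 CPM and Top enterocytes 0.31 and 0 CPM. Of the 41 Fabp6-positive Bottom enterocytes of EC-Foxc-DKO replicate 2, 7 had a Fgf15 UMI, against 9 of the 305 without Fabp6. In Control replicate 1 these were 1 of 5 against 5 of 184 cells, and in Control replicate 2 they were 0 of 2 against 1 of 25. In EC-Foxc-DKO replicate 1 they were 0 of 6 against 3 of 115, so all 40 Fgf15 UMIs lay in cells without Fabp6.

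Position was also read without clusters. Each enterocyte was placed in 1 of 5 equal ranges by the share of villus-top landmarks (such as Ada, Nt5e and Apoa4) in the sum of top and bottom landmarks (such as Reg3b, Lypd8 and Il18), each gene scaled to its mean. From the lowest to the highest range, Slc51a ran at 441, 469, 389, 308 and 107 CPM in Control replicate 1. For EC-Foxc-DKO replicate 1 it ran at 405, 389, 326, 265 and 126 CPM. It stayed high over most of the villus and was lowest in the last range in both. Nr1h4 was highest in the first range, with 42.2, 25.4, 15.7, 13.2 and 6.68 CPM in Control replicate 1. For EC-Foxc-DKO replicate 1 it was at 37.0, 23.4, 22.5, 7.21 and 7.53 CPM. Slc10a2 was highest in the third range of Control replicate 1, at 8.08 CPM from 19 UMIs. In EC-Foxc-DKO replicate 1 it was highest in the fourth, at 8.66 CPM from 6 UMIs. In EC-Foxc-DKO replicate 2 it fell from the first range to the third, at 10.5, 6.87 and 1.65 CPM from 74, 9 and 1 UMIs. Nr0b2 in Control replicate 1 was at 2.59 CPM in the first range and 11.5 CPM in the third and the fourth. In EC-Foxc-DKO replicate 1 it was highest in the second, at 4.32, 7.94, 6.61, 5.77 and 5.55 CPM over the ranges. The last range took in 109 Middle and 320 Top enterocytes.

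**Figure D4:**
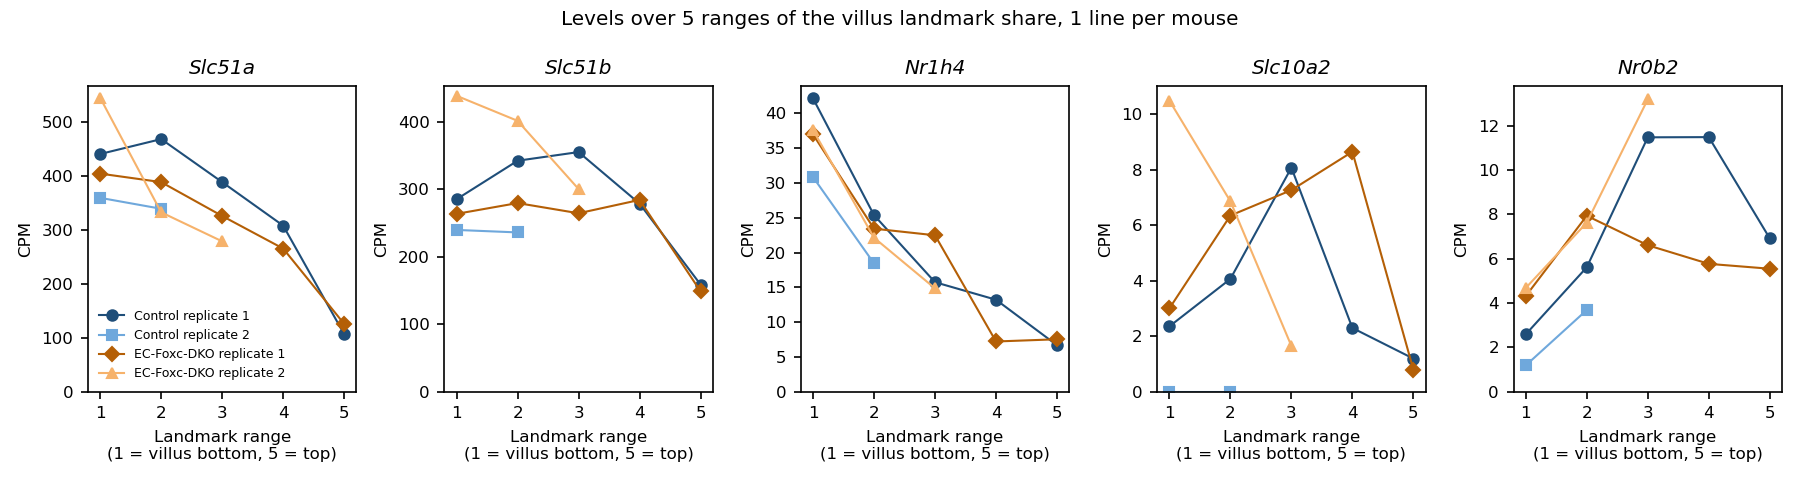
CPM (y axes) of Slc51a, Slc51b, Nr1h4, Slc10a2 and Nr0b2 in 5 ranges of the villus landmark share (x axis, 1 at the villus bottom and 5 at the top), 1 line per mouse, for ranges with at least 10 cells of that mouse. Slc51a was at 107 and 126 CPM in the last range of the mice with all 5 ranges, and Nr1h4 was highest in the first range, at 42.2 and 37.0 CPM.

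Outside the epithelium the genes were at background. Of the UMIs in kept cells, the share within epithelial clusters was 100% for Slc10a2 and Fgf15, 99.3% for Nr1h4 and between 99.4% and 100% for the others. The hemoglobin-led cluster counted as epithelial, since 69.8% of its 189 cells had UMIs of at least 2 of the 5 epithelial genes. A single cell there held 299 of the 3129 Fabp6 UMIs. In 1378 Follicular B cells, which should lack these genes, there were 21 UMIs of Slc51a and 11 of Slc51b, and 0 or 1 of each other gene. Thus 1.52% of B cells, at a median depth of 3246.5 UMIs, had a Slc51a UMI, against 85.2% to 98.8% of Bottom enterocytes at a median of 31057 UMIs. For Slc10a2, Fgf15, Fabp6, Nr1h4 and Nr0b2 the share of B cells was at most 0.0726%. Over all barcodes, the mitochondrial limit aside, Fabp6 had 4094 UMIs in 174 barcodes and Slc51a 37046 in 5183.

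Genotypes were compared on UMIs summed per mouse by edgeR's quasi-likelihood test, and the p-values of every gene fitted were adjusted together (Benjamini-Hochberg). In Bottom enterocytes 0 of 9665 genes passed an adjusted p of 0.05 (0% called), 282 had an unadjusted p under 0.05, and DESeq2 called 7. Accordingly 0 of the 7 bile acid genes passed, and DESeq2 called Fabp6 alone of them. Levels per mouse had chosen the genes, so their fold changes are a description and nothing is read from this count. The log2 fold change of Fabp6, EC-Foxc-DKO over Control, was 6.66 ± 1.24 (SE). Slc10a2 had 2.08 ± 0.65 and Fgf15 1.76 ± 0.67. The exporter subunits had 0.19 ± 0.25 for Slc51a and 0.40 ± 0.28 for Slc51b, Nr1h4 had -0.06 ± 0.22 and Nr0b2 0.20 ± 0.53, each under 2 standard errors from 0. A p that misses the threshold with 2 mice a group does not show that the levels were equal.

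Fabp6 stayed higher in EC-Foxc-DKO whichever mouse was left out, and its size moved. It was 4.23 when EC-Foxc-DKO replicate 2 was left out and 7.53 when EC-Foxc-DKO replicate 1 was, and in both edgeR fits it passed the threshold, the lone EC-Foxc-DKO mouse being assumed to vary like the Control mice. Without either Control mouse it was 6.09 or 6.77 and did not pass. Without the cells of 10 or more Fabp6 UMIs, a choice made after seeing the data that removes cells of EC-Foxc-DKO mice alone by the value compared, it was 1.73. Without EC-Foxc-DKO replicate 1, Slc10a2 (2.42) and Slc51b (0.72) also passed, as did 882 genes in all, and without EC-Foxc-DKO replicate 2 Slc51b was at -0.02. Without Control replicate 1, Fgf15 was at 0.24 and the remaining Control mouse had no Slc10a2 UMI. These calls rest on the same values that chose the genes.

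The mice also differed in the clusters that their Bottom enterocytes fell into. At a clustering resolution of 1.0, cells of this name formed 3 clusters, of which the one led by Reg3a and Rdh7 held 184, 29, 125 and 32 cells of the 4 mice. The one led by Fabp6 and Car4 held 44, 5, 28 and 160 cells, and the one led by Gstm3 and Saa1 held 30, 0, 13 and 155. At a mitochondrial limit of 20% they formed 2 clusters, with 384, 63, 286 and 30 cells in one and 93, 21, 52 and 503 in the other, led by Fabp6. EC-Foxc-DKO replicate 2 thus had most of its cells in other clusters than the other 3 mice, and whether a difference in levels or in the kind of cell sets the fold changes cannot be told apart. Fabp6 was itself among the variable genes that formed these clusters, so a cluster led by it partly follows its own value. Of kept epithelial barcodes, 11 in Control replicate 1 and 81 in EC-Foxc-DKO replicate 2 had a Fabp6 UMI. These are fewer than the 44 and 160 cells of the cluster led by Fabp6 and Car4.

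**Figure D5:**
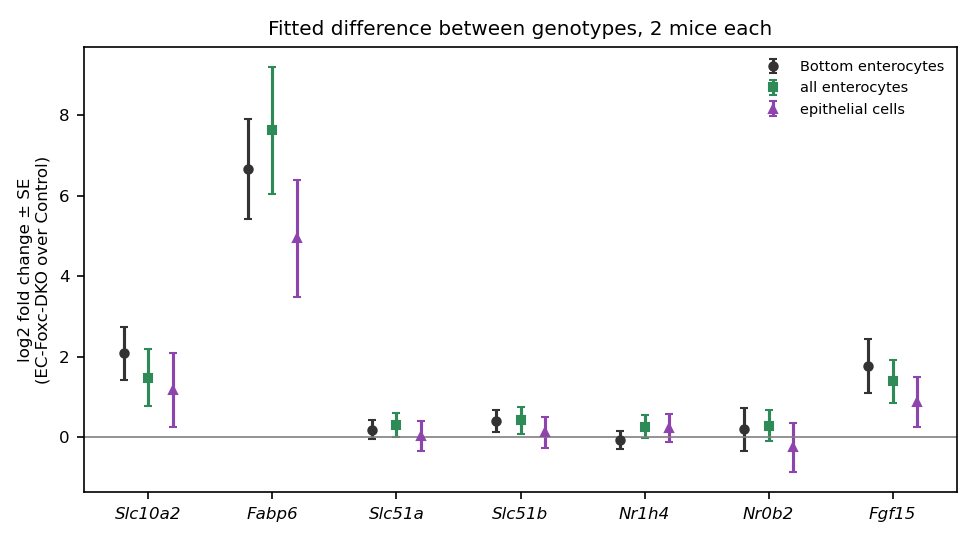
Log2 fold change of each gene, EC-Foxc-DKO over Control, with its standard error (y axis), fitted by edgeR on UMIs summed per mouse for 3 sets of cells, 2 mice in each group. Fabp6 stood highest, at 6.66 ± 1.24 in Bottom enterocytes, and 0 of the 7 genes passed the adjusted threshold in any set.

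In wider sets of cells, too, no gene passed. Over all enterocytes, 0 of 10268 genes passed (0% called), 161 had an unadjusted p under 0.05, and DESeq2 called 2. Fabp6 was at 7.62 ± 1.57, Slc10a2 at 1.48 ± 0.71 and Fgf15 at 1.39 ± 0.54 on the log2 scale. Over all epithelial cells, the hemoglobin-led cluster among them, 0 of 12377 genes passed (0% called). Of these genes 185 had an unadjusted p under 0.05, and DESeq2 called 11. Fabp6 was then at 4.94 ± 1.46 and Slc10a2 at 1.17 ± 0.92, while Slc51a, at 0.03 ± 0.36, and Nr0b2, at -0.26 ± 0.62, were within their errors. Without the hemoglobin-led cluster 0 of 12331 genes passed. Fabp6 moved to 2.00 without EC-Foxc-DKO replicate 2 and to 6.55 without Control replicate 2 in epithelial cells, and Slc10a2 to 0.56 without Control replicate 2. In all enterocytes Fabp6 was at 4.26 and Slc10a2 at 0.66 without EC-Foxc-DKO replicate 2, and Fgf15 at 0.52 without Control replicate 1. At a mitochondrial limit of 20% Fabp6 was at 3.73 in all enterocytes and 2.91 in epithelial cells. The 4 mice differed in their mix of zones, so a difference in levels and one in the mix cannot be told apart in these wider sums. In Crypt cells, Fabp6 had a log2 fold change of -0.55 ± 1.01, and 0 of 9276 genes passed the edgeR test.

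The other genes of bile acid handling were described by lists of function, of which 0 members passed in Bottom enterocytes by edgeR. Of 19 nuclear receptors, other sensors and partners, 16 could be tested, 4 of them above 0, with a median log2 fold change of -0.23 beside 0.01 over all genes tested. The most abundant were Maf at 274, 502, 290 and 415 CPM and the enterocyte regulators Hnf4g, at -0.41 ± 0.25, and Hnf4a, at 0.14 ± 0.24. Of 9 other exporters 7 could be tested, with a median of -0.07, and the most abundant, Abcg2, Abcc2 and Abcb1a, were at -0.11 ± 0.21, -0.14 ± 0.20 and 0.04 ± 0.24. Of 9 other genes linked to FXR 7 could be tested, with a median of 0.29. Among these Cyp3a11, a steroid and drug hydroxylase, was at 58.7, 20.7, 70.5 and 221 CPM, highest in the mouse with the most Fabp6, at 1.79 ± 0.59. Within that mouse Cyp3a11 was at 39.5 CPM, from 16 UMIs, in Bottom enterocytes with 10 or more Fabp6 UMIs. Those without Fabp6 held 247 CPM. Over all enterocytes Cyp3a11 was at 388, 186, 664 and 228 CPM, highest in EC-Foxc-DKO replicate 1. Il18, an epithelial cytokine, was at 420, 452, 408 and 646 CPM. Of 6 relatives of Fabp6 3 could be tested, with a median of 0.47, and Fabp2, the intestinal-type protein, was at 23251, 18207, 22322 and 41641 CPM.
In the position lists, 20 of 34 proximal genes were above 0 at a median of 0.06, and 20 of 30 distal genes at a median of 0.22. Of 8 liver genes of bile acid synthesis and of 6 colon genes, 2 each could be tested, with medians of -0.02 and -0.18.

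The genes whose levels ran most like each of the 7 were found by Pearson's r of log2(CPM + 1) over 23 sums of 1 mouse and 1 epithelial cell type, among 7431 genes. These sums share libraries and depth, so r is a description. Slc51a was closest to Enpep (r = 0.964), an aminopeptidase, followed by Tmem120a and Mogat2 (both 0.946) and Nr1i3 (0.944), the receptor CAR. Slc51b was closest to Ogdh (0.954) and Acsl5 (0.943). Nr1h4 was closest to Dynll2 (0.827) and Nr0b2 to Rhou (0.817). The sparse genes had looser partners, Ugt2b34 (0.758) for Fgf15, Pafah2 (0.707) for Fabp6 and Ube3b (0.673) for Slc10a2. Nr1h4 was the fifth of the genes most like Fabp6, at 0.620.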

How the data were processed

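Droplet libraries of 3′ transcript ends were made from 4 mice, 1 library each. The authors deposited, per library, a matrix of UMI counts per gene and barcode, already limited to called cells, used here, and a joined table of 18407 genes without library names, read only to check totals. Per the labels' processing notes the counts came from Cell Ranger 4.0.0 on mm10; the study's methods name another version. Barcodes with at most 10% mitochondrial UMIs were kept, as in the methods. Counts were scaled to 10000 UMIs and log-transformed, and variable genes, 15 principal components and 15 neighbours fed Leiden clustering at a resolution of 0.5 (scanpy 1.11.5, leidenalg 0.10.2). Clusters took the name for which most of the 10 markers listed by the study were detected, at least 3. Doublets were left in, and their removal was an alternative.

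The study tested single cells with MAST. Cells of 1 mouse are not replicates, so counts were summed per mouse and tested with edgeR 4.0.16 (TMM, filterByExpr, Benjamini-Hochberg, threshold 0.05), with DESeq2 1.42.0 as an alternative. The script was tested on simulated data. Each mouse is 1 replicate, and replicate numbers shared between the groups are only numbers. Intervals and limits (3 counts) cover counting error at 95% only.

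Genes and lists were chosen with earlier results of these data known. The 7 genes are always named. From each other list, genes that passed were named, up to 5, and the 3 with the highest CPM over enterocytes, and for each of the 7 genes the 5 most alike were ranked, of which the first are given. RefSeq sequences were taken from GRCm38.p6.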

Additional observations from a re-analysis of the deposited data

Results flagged for a closer look

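Barcodes above the mitochondrial limit were left out of the main genotype fits. In those of EC-Foxc-DKO replicate 2, Fabp6, Slc10a2, Slc51b and Fgf15 were higher than in those of both Control mice, beyond the counting error. Among such barcodes with UMIs of at least 2 epithelial genes, Fabp6 was at 62.9 CPM in EC-Foxc-DKO replicate 2, against 0.385 and 12.3 CPM in the Control mice and 5.28 CPM in EC-Foxc-DKO replicate 1. Slc10a2 was at 3.59 CPM, against 1.90 and 0.66 CPM in the Control mice. Slc51b was at 165 CPM, against 151 and 82.6 CPM. Fgf15 was at 3.77 CPM, against 1.18 and 0.33 CPM. In EC-Foxc-DKO replicate 1 Slc10a2 was at 1.31 CPM, Slc51b at 110 CPM and Fgf15 at 0.87 CPM, each within the range of the Control mice. Slc51a was at 218 CPM in EC-Foxc-DKO replicate 2, against 213 and 128 CPM in the Control mice. Nr1h4 and Nr0b2 in that mouse lay between the Control mice. The counting error leaves out variation between mice. The same comparison was not made over all genes, so nothing particular to the bile acid genes is read from it. Groups of 2 mice are too small for a check of single outlying samples.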

How the results depend on the processing

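Bottom enterocytes, all enterocytes and epithelial cells had 0 calls in edgeR, against 7, 2 and 11 with DESeq2 and 165, 80 and 95 without the filter on low genes. Leaving out 1 mouse gave 0 to 882, 0 to 132 and 0 to 70 calls, the highest without EC-Foxc-DKO replicate 1, and 20, 9 and 1 without EC-Foxc-DKO replicate 2. With the replicate number as a block there were 3, 5 and 0 calls, and the block put Fabp6 past the threshold in Bottom enterocytes (log2 fold change 5.17) and in all enterocytes (5.43). Same-numbered mice deviated together with correlations of -0.14, 0.18 and 0.21, so the numbers were not taken as pairs, and the crossed pairing gave 31 calls in Bottom enterocytes, Fabp6 (7.29) among them.

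The log2 difference of CPM + 1 between Bottom and Top enterocytes was 2.56 for Slc51a. It was 2.44 at a mitochondrial limit of 20%, 2.15 without doublets and 2.07 at a resolution of 1.0. At the 20% limit all mice had at least 10 Top enterocytes, so that value covers more mice than the others. For Slc51b the difference was 1.28, and 0.87 without doublets and 0.88 at a resolution of 1.0. For Nr1h4 and Nr0b2 it was 2.07 and 0.13. What moved these values was not tested. Over the landmark ranges another measure was taken, the lowest minus the highest range that each mouse had, averaged over all mice. Control replicate 2 reached only range 2 and EC-Foxc-DKO replicate 2 only range 3, so it is not a Bottom to Top difference. It was 1.19 for Slc51a, 0.56 for Slc51b, 1.66 for Nr1h4 and -0.97 for Nr0b2.

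Of 273 fold changes of the 7 genes under alternatives, 241 kept their direction and side of the threshold, 15 passed it and 17 changed sign. Nr1h4 in Bottom enterocytes turned from -0.06 to 0.043 at the 20% limit and to 0.0078 at a resolution of 1.0. Leaving out 1 mouse spread the fold changes in Bottom enterocytes over -0.089 to 0.41 for Slc51a, -0.021 to 0.72 for Slc51b, -0.13 to 0.056 for Nr1h4 and -0.32 to 2.104 for Nr0b2. In all enterocytes these were -0.056 to 0.59 for Slc51a and -0.063 to 0.77 for Slc51b. In epithelial cells they were -0.30 to 0.47 for Slc51a, -0.27 to 0.66 for Slc51b, -0.017 to 0.59 for Nr1h4 and -0.72 to 0.88 for Nr0b2. Control replicate 2, with 27 Bottom enterocytes, limits what can be seen of the sparse genes.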
